A study of Mus musculus with 203 samples.

Results

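The genes described here encode 9 receptors for hormones of hunger, body weight and the gut: the ghrelin receptor (Ghsr), the leptin receptor (Lepr), the melanocortin receptors 4 and 3 (Mc4r, Mc3r), the receptors of glucagon-like peptide 1 and glucose-dependent insulinotropic polypeptide (Glp1r, Gipr), the cholecystokinin receptors A and B (Cckar, Cckbr) and the insulin receptor (Insr). They were chosen by name, and all 9 are among the 24029 genes of the count table. Single neurons of the nucleus ambiguus (Amb), a brainstem nucleus whose motor neurons project to the heart, lungs, larynx and upper airway, were taken from wild-type C57BL/6 mice (C57BL/6NCrl in the study's methods) at postnatal days 2 to 4. A fluorescent cholera toxin B tracer had been injected at postnatal day 1 into the pericardial space or the cricothyroid muscle of the larynx, and labelled neurons were aspirated from slices and sequenced 1 by 1 by Smart-seq2. The deposited annotation divides them into 53 ambiguus cardiopulmonary (ACP) and 98 ambiguus cardiovascular (ACV) neurons, all heart-labelled, and 52 larynx-labelled (laryngeal) neurons. The 3 groups shared strain, tracer and the age range of postnatal days 2 to 4, and carried no transgene. In the study's methods the heart and larynx injections were made in different mice. Differences between heart-labelled and laryngeal neurons therefore cannot be told apart from differences between mice or injections.

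Ghrelin is a stomach peptide that rises with fasting, and its receptor also has activity without ligand. Leptin, from fat, acts through Lepr on the Jak2 and Stat3 kinase and transcription factor pathway. Melanocortin peptides cut from Pomc activate Mc4r and Mc3r, which raise cyclic AMP, and Mc4r on autonomic preganglionic neurons is known to influence heart rate and blood pressure. Glp1r and Gipr, receptors of gut incretin hormones, also raise cyclic AMP, whereas the cholecystokinin receptors work mainly through Gq and phospholipase C. Vagal neurons are a known target of several of these hormones.

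The 250 bases before the RefSeq transcription start (GRCm38.p6, plus strand) are shown for the pair of receptors detected together in ACV neurons and for Cckbr, which lay on the ACP side. Windows were given for 5 of the 9 members. Capitals mark a match to 1 of 5 motifs searched on both strands, namely the TATA box TATAAA, the homeodomain motif TAATTA, the STAT motif TTCNNNGAA, the E-box CACGTG and the GC box GGGCGG.
Ghsr, chr3:27371101-27371350: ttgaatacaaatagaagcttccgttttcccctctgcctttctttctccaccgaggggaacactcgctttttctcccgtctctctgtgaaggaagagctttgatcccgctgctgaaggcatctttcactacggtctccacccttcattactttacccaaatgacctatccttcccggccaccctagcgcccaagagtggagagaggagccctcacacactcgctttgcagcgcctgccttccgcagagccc
Lepr, chr4:101717157-101717406: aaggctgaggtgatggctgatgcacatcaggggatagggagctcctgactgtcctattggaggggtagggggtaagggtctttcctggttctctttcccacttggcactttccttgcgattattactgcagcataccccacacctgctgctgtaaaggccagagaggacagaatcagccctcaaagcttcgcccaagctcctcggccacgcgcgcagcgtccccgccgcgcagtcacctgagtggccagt
Cckbr, chr7:105425481-105425730: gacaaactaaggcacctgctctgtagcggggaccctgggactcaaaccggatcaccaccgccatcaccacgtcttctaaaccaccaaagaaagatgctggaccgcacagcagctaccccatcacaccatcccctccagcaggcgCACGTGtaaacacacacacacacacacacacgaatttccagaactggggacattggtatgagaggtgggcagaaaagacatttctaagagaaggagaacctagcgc
The Ghsr and Lepr windows shown held none of the 5 motifs, and a second Lepr window, not shown, held GGGCGG at bases -164 to -159. Cckbr held CACGTG at bases -106 to -101, a motif found in 6.02% of all 32851 promoter windows, and the Glp1r window held 3 matches to GGGCGG, which 32.7% of windows hold. TATAAA was found in 12.4% of windows, TAATTA in 4.84% and TTCNNNGAA in 7.02%. These matches describe letters and are not binding data.

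In the mm10 genome, with GENCODE vM21 gene models, Ghsr lies on chromosome 3 (27371351 to 27378010, plus strand) and Lepr on chromosome 4 (101717404 to 101815352, plus strand). Mc4r is a gene of 1 exon on chromosome 18 (66857704 to 66860506, minus strand), and Mc3r, also of 1 exon, is on chromosome 2 (172248492 to 172251114). Glp1r is on chromosome 17 (30901817 to 30940791), Cckbr on chromosome 7 (105425731 to 105470898), Gipr on the minus strand of chromosome 7 (19156061 to 19166127), Cckar on chromosome 5 (53697776 to 53707705) and Insr on chromosome 8 (3122061 to 3279617). No exon of a member overlaps an exon of another annotated gene, and the neighbouring gene Leprot ends 58039 bases before Lepr begins. A gene's count covers all of its transcripts, so the long and short forms of Lepr, or the full and truncated forms of Ghsr, cannot be told apart.

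Total counts per neuron ran from 542162 to 3292763. The ribosomal RNA gene Rn45s took a median of 34.3% of the counts in ACP, 35.8% in ACV and 58.6% in laryngeal neurons, so levels are given as counts per 1000000 counts outside Rn45s (CPM). Outside Rn45s the median depth was 1115375 counts in ACP, 1120512 in ACV and 560892 in laryngeal neurons. The labels name neither mouse nor plate, so each neuron type counts as 1 sample, no test between types is possible, and an SD is the spread between neurons. ACP and ACV were also separated by the authors' clustering of these same counts, so their differences are description. The vesicular acetylcholine transporter Slc18a3 had reads in 53 of 53, 98 of 98 and 52 of 52 neurons. Calb1, an ACP marker, had reads in 77.4% of the ACP and 44.9% of the ACV cells. Bche, an ACV marker, had reads in 89.8% of the ACV and 43.4% of the ACP cells. Calca had reads in 96.2% of laryngeal, 50.9% of ACP and 42.9% of ACV neurons, with means of 2095, 52.8 and 22.8 CPM.

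Reads of other cells were present in every type. All 7 astrocyte markers were detected in each type, with summed levels of 11.1 to 8894 CPM in ACP, 18.7 to 30453 CPM in ACV and 0 to 14617 CPM in laryngeal neurons. Of the 5 endothelial markers, 4 were detected in ACP neurons, where Flt1 was at 0, and 5 in the other types, and any of them had a read in 12 ACP, 26 ACV and 15 laryngeal neurons, up to 93.99, 86.6 and 377 CPM. All 5 microglial markers were detected in each type, any of them in 29 ACP, 61 ACV and 29 laryngeal neurons, with summed levels of up to 418, 4326 and 1449 CPM; C1qb had means of 20.4 CPM in ACP, 124.9 CPM in ACV and 50.7 CPM in laryngeal neurons. In the neurons with no microglial read, a set chosen after seeing the data, Ghsr was found in 0 of 24 ACP and 21 of 37 ACV neurons, Lepr in 4 and 21, Mc4r in 16 and 7 and Cckbr in 11 and 2. The 4 haemoglobin genes were at 0 in every neuron. In the deposited counts 11 ACP, 28 ACV and 0 laryngeal neurons exceeded 1800 counts of the astrocyte gene Apoe, the limit in the study's methods. Of 10 genes listed for other organs, Alb, Ins1, Ins2, Krt5, Umod and Sftpc had a read in at most 2 neurons of a type. Myh6 had one in 8 ACP, 18 ACV and 2 laryngeal neurons. Ttr had one in 42, 71 and 30, with means of 367, 525 and 876 CPM, and is not taken as foreign to the brain.

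Ghsr and Lepr were higher in ACV neurons, and Mc4r and Cckbr in ACP neurons. Ghsr was detected, with at least 1 read, in 65 of 98 ACV neurons and 0 of 53 ACP neurons, and Lepr in 61 and 9. Mc4r was detected in 39 of 53 ACP neurons and 24 of 98 ACV neurons, and Cckbr in 25 and 10. Laryngeal neurons had each of these 4 in between 17.3% and 34.6% of cells. Insr had like shares in all types at the deposited depth, and Mc3r, Gipr and Cckar were rare in all types.

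**Figure D1:**
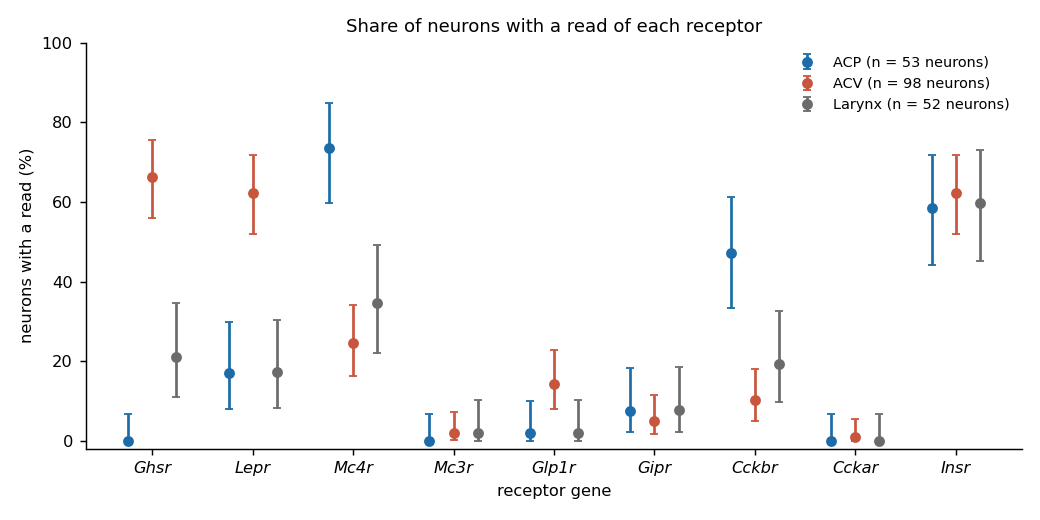
Share of neurons (%) with at least 1 read of each receptor gene, in 53 ACP, 98 ACV and 52 laryngeal (Larynx) neurons; bars are exact 95% binomial intervals for counting error. Ghsr was at 66.3% in ACV and 0% in ACP, Mc4r at 73.6% in ACP and 24.5% in ACV, and Insr between 58.5% and 62.2% in all types.

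Ghsr, which binds ghrelin, separated the heart-labelled types. Levels in ACV neurons ran from 0 through a median of 11.8 CPM to 221 CPM, with a mean of 23.1 ± 33.9 CPM (SD, n = 98), while every ACP neuron was at 0. The share in ACV was 66.3% (exact 95% interval 56.1% to 75.6%), and 0 of 53 ACP neurons has an exact upper limit of 6.72% (3 neurons of 53 would be 5.66%). The summed count was 2890 in ACV, or 24.97 CPM as a sum (exact Poisson interval 24.1 to 25.9). Set against a floor of 3 counts over the summed ACP total, 0.0464 CPM, the ACV mean was 497-fold higher. The size of that fold depends on the floor. The exact Poisson upper limit for 0 counts in ACP is 3.69 counts, or 0.0571 CPM. In detected ACV neurons the median was 36 reads, and 52 of 98 had at least 10. When every neuron was thinned to 300000 counts, 58.2% of ACV neurons and 0% of ACP neurons had a read of Ghsr. Among the 13356 genes detected in at least 10% of ACP or ACV neurons, Ghsr had the largest difference in detection toward ACV.

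In laryngeal neurons Ghsr was detected in 11 of 52, or 21.2% (11.1% to 34.7%), with a mean of 7.496 ± 23.5 CPM (SD, n = 52). The ACV mean was 3.08-fold higher than the laryngeal mean, and the laryngeal mean was 161.4-fold above the same ACP floor of 3 counts. The ranges overlap, since the highest laryngeal neuron reached 128.5 CPM. Those 11 neurons held between 1 and 91 reads of Ghsr. The laryngeal gene Calca had a read in all 11, from 90 to 11882, and the ACV marker Bche in 2 of them. A read of Calca does not mark a neuron as laryngeal, since 42.9% of ACV neurons also had one. The neuron with 90 reads of Calca had 24 reads of Bche.

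Lepr, the leptin receptor, was also highest in ACV neurons. Its levels in ACV neurons ran from 0 through a median of 2.51 CPM to 197.02 CPM, with a mean of 17.5 ± 34.4 CPM (SD, n = 98), and 62.2% of neurons (51.9% to 71.8%) had a read. In ACP neurons the mean was 1.67 ± 6.19 CPM (SD, n = 53), the highest neuron held 35.4 CPM, and 16.98% (8.07% to 29.8%) had a read, with a median of 3 reads in those detected. The ACV mean was 10.4-fold that of ACP. Both groups therefore overlap at 0 and in their low range, but 36 ACV neurons and 3 ACP neurons had at least 10 reads. At 300000 counts per neuron Lepr remained in 52.04% of ACV and 13.2% of ACP neurons.

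Laryngeal neurons had Lepr in 9 of 52 (17.3%, 8.23% to 30.3%), with a mean of 5.46 ± 21.05 CPM (SD, n = 52), and only 4 of them had 3 or more reads. The ACV mean was 3.20-fold higher than the laryngeal mean. The laryngeal mean was 3.26-fold that of ACP although the shares were alike, and this order depended on few neurons. Without its highest neuron the laryngeal mean was 2.96 CPM. In the 38 laryngeal neurons with at most 900 counts of Apoe it was 0.378 CPM, so that the order against ACP turned over, with a log2 fold (ACP over laryngeal) of 2.26 in place of -1.71. Lepr is also expressed by endothelial and mural cells. In the 37 laryngeal neurons with no endothelial marker read the mean was 2.40 CPM, against 16.9 CPM in the 72 such ACV neurons. Neurons with mural marker reads were not set aside, and the part of other cells in the laryngeal reads was not tested.

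**Figure D2:**
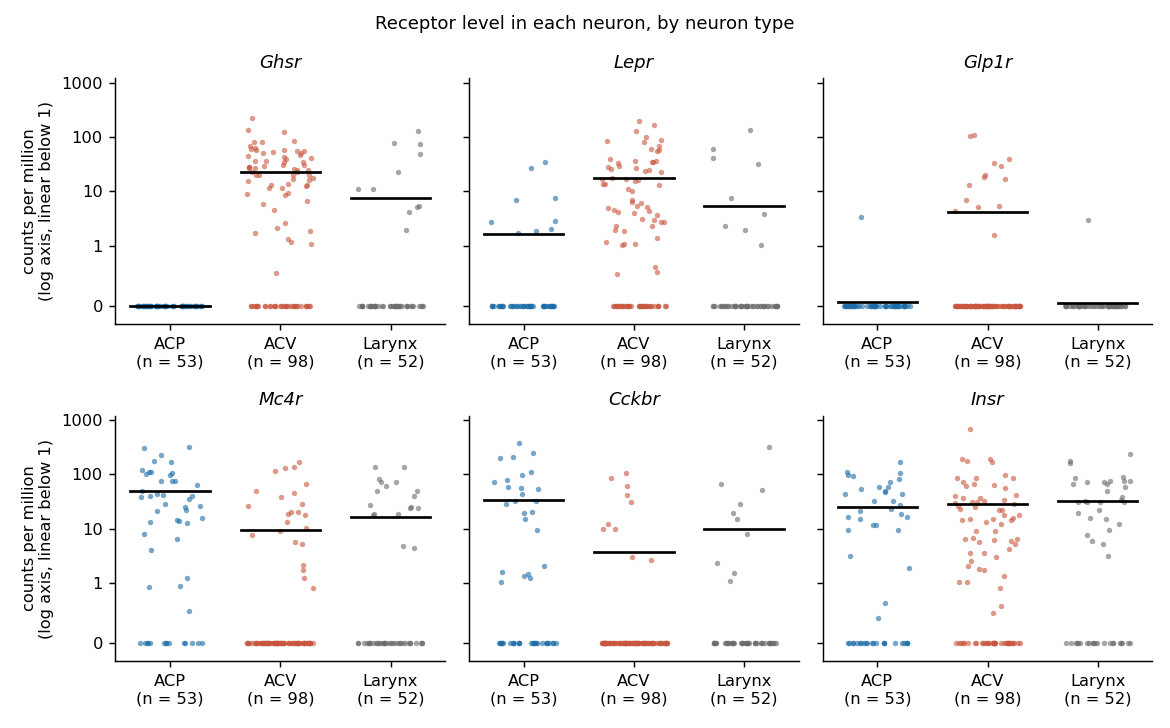
Level of 6 receptors in each neuron (CPM outside Rn45s, log axis that is linear below 1) by neuron type; points are neurons and black lines the means. Ghsr was at 0 in all 53 ACP neurons and reached 221 CPM in ACV, and Mc4r had means of 49.5, 9.57 and 16.6 CPM in ACP, ACV and laryngeal neurons.

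Mc4r, the melanocortin receptor of energy balance, had the opposite order. ACP neurons ran from 0 through a median of 20.9 CPM to 313 CPM, with a mean of 49.5 ± 72.8 CPM (SD, n = 53), and 73.6% (59.7% to 84.7%) had a read. In ACV neurons the median was 0, the highest 168.97 CPM and the mean 9.57 ± 29.01 CPM (SD, n = 98), with 24.5% (16.4% to 34.2%) detected. The ACP mean was 5.17-fold that of ACV. Detection was not a matter of single reads, as 32 ACP and 17 ACV neurons had at least 10. Unlike Ghsr, Mc4r was not missing from the other heart-labelled type, and the 4 highest ACV neurons, at 114.3 to 168.97 CPM, lay within the range of ACP neurons.

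Laryngeal neurons held Mc4r in 18 of 52 (34.6%, 21.97% to 49.1%), with a mean of 16.6 ± 32.7 CPM (SD, n = 52). All 18 had at least 4 reads. The ACP mean was 2.97-fold higher. The laryngeal mean was 1.74-fold that of ACV, short of the 2-fold rule used here. The shares were 34.6% and 24.5%, and their intervals cover counting error only, so they do not compare the types. With summed counts, or in neurons with at most 900 counts of Apoe or at most 50% of counts on Rn45s, that difference passed 2-fold, with log2 folds (ACV over laryngeal) of -1.42, -1.22 and -1.88, and without microglial reads it was -2.16. In the 15 laryngeal neurons with at most 50% of counts on Rn45s the share was 53.3%. Mc3r, the other neural melanocortin receptor, had reads in 0 ACP, 2 ACV and 1 laryngeal neuron, which is within the range of the genes of other organs. Of the 29 reads in ACV, 26 were in 1 neuron.

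Cckbr, the cholecystokinin and gastrin receptor of the brain, accompanied Mc4r on the ACP side. ACP neurons ran from 0, which was also the median, to 372 CPM, with a mean of 33.2 ± 72.3 CPM (SD, n = 53) and 47.2% (33.3% to 61.4%) detected. In ACV the mean was 3.73 ± 15.9 CPM (SD, n = 98), the highest 108.3 CPM and the share 10.2% (5.003% to 17.97%). The ACP mean was 8.92-fold that of ACV. In laryngeal neurons 19.2% (9.63% to 32.5%) had a read and the mean was 9.90 ± 45.7 CPM (SD, n = 52), of which 1 neuron at 321 CPM held 58.4% of all reads. Without that neuron the laryngeal mean was 3.79 CPM, and the difference of 2.65-fold from ACV fell below 2-fold. In neurons with no microglial read that order turned over, with a log2 fold (ACV over laryngeal) of 0.10. The ACP mean was 3.36-fold the laryngeal mean, and in neurons with at most 900 counts of Apoe that log2 fold was 0.70 in place of 1.75. Its partner Cckar, the receptor of the gut and vagal afferents, had 1 read in all, in 1 ACV neuron.

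Glp1r was detected in 14 of 98 ACV neurons (14.3%, 8.04% to 22.8%) and in 1 ACP and 1 laryngeal neuron. The ACV mean was 4.12 ± 16.1 CPM (SD, n = 98), and the neurons with a read held at least 3 reads, with a median of 24. The ACV mean was 65.8-fold that of ACP and 43.4-fold that of laryngeal neurons, which held 1 neuron with a read each. A total of 611 reads in ACV stood against 3 in ACP and 2 in laryngeal neurons. Per count outside Rn45s, the summed ACV count was 113.7-fold that of ACP (exact interval for counting error 38.7 to 553) and 83.5-fold that of laryngeal neurons (23.01 to 691). Cela1, listed above for another organ, also leaned toward ACV over ACP. It had reads in 13 ACV and 2 ACP neurons, with means of 5.36 and 0.168 CPM. The 2 highest ACV neurons, at 106.9 and 102.4 CPM, stood well above the next, at 39.7 CPM. Gipr was rare everywhere, in 4 ACP, 5 ACV and 4 laryngeal neurons, with means of 0.952, 0.421 and 1.14 CPM; the heart muscle gene Myh6 was detected in more heart-labelled neurons than that.

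Insr gave no such order. It was detected in 58.5% (44.1% to 71.9%) of ACP, 62.2% (51.9% to 71.8%) of ACV and 59.6% (45.1% to 72.99%) of laryngeal neurons. Thinned to 300000 counts the shares were 54.7%, 55.1% and 63.6%, with 8 laryngeal neurons left out. In neurons with no microglial read they were 41.7%, 56.8% and 60.9%. The means of Insr over all neurons were 25.2 ± 37.3 CPM (SD, n = 53), 28.4 ± 78.9 CPM (SD, n = 98) and 32.8 ± 49.4 CPM (SD, n = 52), and the largest fold between types was 1.30. The ACV mean includes 1 neuron at 693 CPM, which held 21.1% of the ACV reads.

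Levels can be compared between genes only per length of exon. In ACP neurons the order of means was Mc4r at 17.6 CPM per kilobase, Cckbr at 11.6, Insr at 1.84, Gipr at 0.273 and Lepr at 0.237. In ACV neurons it was Ghsr at 5.21 CPM per kilobase, Mc4r at 3.41, Lepr at 2.48, Insr at 2.07, Cckbr at 1.30 and Glp1r at 0.709. Laryngeal neurons had Mc4r at 5.94, Cckbr at 3.46, Insr at 2.39, Ghsr at 1.69 and Lepr at 0.774. In each type, neighbours in these orders differ by less than the larger of their SDs between neurons. Mc4r thus ranked second in ACV by mean level per length, ahead of Lepr, though it was found in fewer neurons.

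These differences were read against all genes. Of 13356 genes detected in at least 10% of either heart-labelled type, 9.87% had a mean at least 2-fold higher in ACP and 8.63% one at least 2-fold higher in ACV. Among the receptors, 6 passed that filter, 2 were higher in ACP (Mc4r, Cckbr), 3 in ACV (Ghsr, Lepr, Glp1r) and 1 in neither (Insr). A difference of at least 30 percentage points in detection was found for 0.869% of genes toward ACP, among them Mc4r (21st of all genes) and Cckbr (49th), and for 0.397% toward ACV, among them Ghsr and Lepr (12th). The study had already listed Mc4r and Cckbr as enriched in ACP, and Ghsr and Lepr in ACV, from these same counts. Their ranks here restate that listing and are not independent evidence. Ghsr and Glp1r passed the filter on detection in ACV alone, which favours a call toward ACV.

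Against laryngeal neurons 5 receptors passed the filter with ACP, of which Mc4r and Cckbr were at least 2-fold higher in ACP, as were 10.3% of genes, and Ghsr and Lepr in laryngeal neurons, as were 12.5%. Toward ACP the 30-point rule was met by Mc4r and by 0.996% of genes. With ACV, 6 passed, and Ghsr, Lepr and Glp1r were higher in ACV (10.4% of genes) and Cckbr in laryngeal neurons (14% of genes). Ghsr and Lepr met the 30-point rule toward ACV, as did 0.887% of genes. Both comparisons use the same laryngeal neurons.

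**Figure D3:**
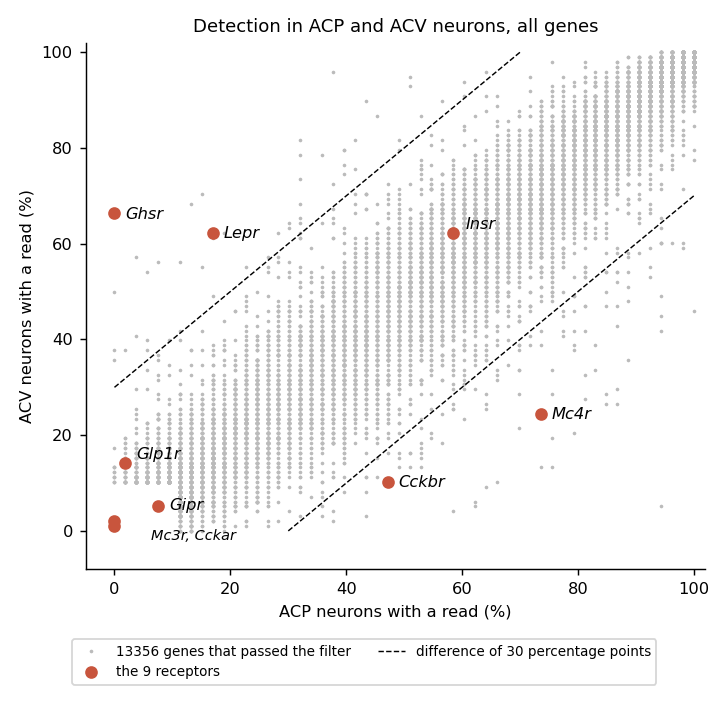
Share of ACP neurons (x axis, %) and ACV neurons (y axis, %) with a read of each of 13356 genes detected in at least 10% of either type (grey) and of the 9 receptors (red); dashed lines mark a difference of 30 percentage points. Ghsr and Lepr lie above the upper line, Mc4r and Cckbr below the lower line, and Insr near the diagonal.

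Ghsr and Lepr were often found in the same ACV neuron. Both had reads in 50 of 98 neurons (51.02%, 40.7% to 61.3%), Ghsr alone in 15, Lepr alone in 11 and neither in 22. Lepr was found in 76.9% of neurons with Ghsr and in 33.3% of those without. The product of the 2 shares gives 40.5 neurons with both, so the observed number was 1.24 times that. With at least 3 reads required of each gene 38 neurons had both (product 31.2), with at least 10 reads 21 (product 19.1), and with each neuron thinned to 300000 counts 34 (product 29.7; 34 to 39 in 5 draws). The ratio was 1.22, 1.10 and 1.15 at these settings.

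The number of genes detected in a neuron moved with this count. In the 49 ACV neurons with fewer genes (median 6276), 22 had Ghsr, 18 had Lepr and 11 had both (product 8.08). In the 49 with more genes (median 8779), 43 had Ghsr, 43 had Lepr and 39 had both (product 37.7). Observed over product was 1.36 in the former and 1.03 in the latter. With each gene in 43 of 49 neurons, the latter ratio had little room to differ from 1. It does not show that joint detection was weaker there. Mc4r, by contrast, was found in 12 neurons of each set. Genes detected depend on both RNA content and capture, and the part of either in the joint detection was not tested.

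Levels of the 2 genes were not proportional. Across the 98 ACV neurons Pearson's r was 0.01 and Spearman's rho 0.28, and within the 50 neurons with both 0.07 and 0.16. These values were taken on the log scale of counts per 10000 that is used below to rank genes, not on CPM. They are descriptions of neurons that share their preparation. The 3 neurons of highest Lepr, at 197.02, 169.5 and 128.02 CPM, had no read of Ghsr. The neuron of highest Ghsr, at 221 CPM, had no read of Lepr, and the next, at 134.2 CPM, had 4.20 CPM of Lepr. These neurons were picked after their values were seen.

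**Figure D4:**
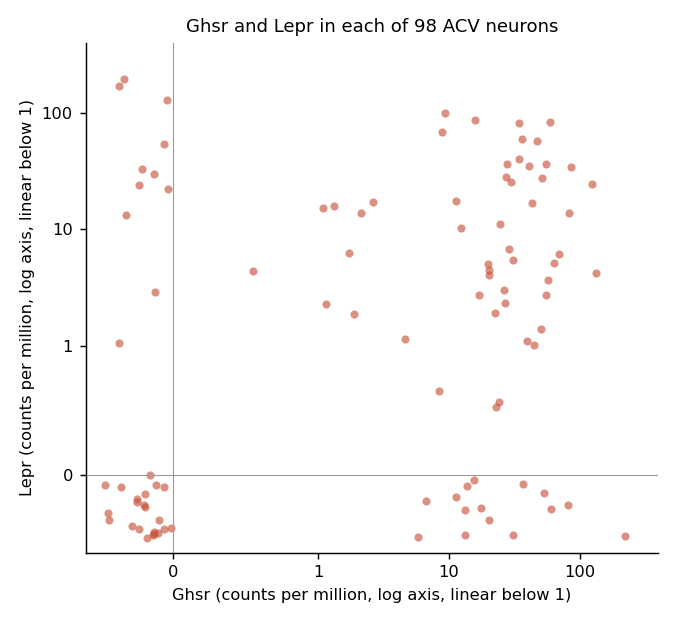
Level of Ghsr (x axis) and Lepr (y axis) in each of 98 ACV neurons (CPM outside Rn45s, log axes that are linear below 1); neurons at 0 are spread below 0 so that they can be seen. Both genes had reads in 50 neurons, and the highest Lepr neurons lie at 0 Ghsr.

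**Figure D5:**
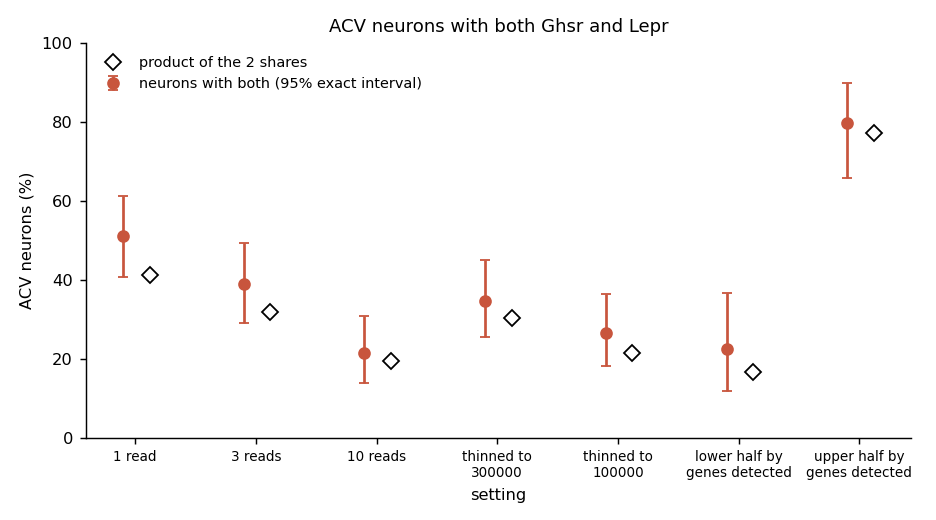
Percent of ACV neurons with both Ghsr and Lepr (circles, exact 95% binomial interval) and the product of the 2 shares (diamonds) for 3 minimum read numbers, 2 thinned depths and the 49 neurons each with fewer or more genes detected. The circle is above the diamond at each setting, by least where 10 reads were required and in the neurons with more genes. In the latter neurons each gene was found in 43 of 49, which leaves little room for a difference.

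Insr, the most widespread member, met Ghsr in 44 ACV neurons (product 40.5), Lepr in 43 (product 37.97) and Mc4r in 22 ACP neurons (product 22.8). A pair with a gene that is no member gave a like ratio, since Lepr and Rxfp2, a receptor of insulin-like peptide 3, met in 41 ACV neurons (product 32.99), 1.24 times the product. Ghsr and Rxfp2 met in 38 (product 35.2). All 14 ACV neurons with Glp1r also had Lepr (product 8.71) and 12 had Ghsr (product 9.29), though at 3 or more reads of both genes Lepr was found in 11 of the 14. In ACP neurons Mc4r and Cckbr were both found in 18 of 53, against a product of 18.4. Cckbr and Insr were found together in 20 ACP neurons (product 14.6), and all 10 laryngeal neurons with Cckbr had Insr (product 5.96), but in ACV they met in 3 neurons (product 6.22). In laryngeal neurons Ghsr and Lepr met in 3.

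By the pairs Ghsr or Lepr and Mc4r or Cckbr, neurons fell out as follows. Of 53 ACP neurons 37 had only Mc4r or Cckbr, 9 had a member of each pair, 0 had only Ghsr or Lepr and 7 had none of the 4. Of 98 ACV neurons 50 had only Ghsr or Lepr, 26 a member of each pair, 6 only Mc4r or Cckbr and 16 none. Of 52 laryngeal neurons the numbers were 8, 9, 14 and 21. The 9 receptors together gave 2.06 ± 1.10 detected per ACP neuron (SD, n = 53), 2.48 ± 1.41 per ACV neuron (SD, n = 98) and 1.63 ± 1.34 per laryngeal neuron (SD, n = 52). At 300000 counts the means were 1.85, 2.18 and 1.66, with 8 laryngeal neurons too shallow to be included. No neuron had more than 5 receptors.

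The genes of ghrelin, leptin and the incretins were nearly absent from these neurons. Of 17 ligand and processing genes in the table, 7 passed the filter between ACP and ACV. Ghrl and Lep had no read in ACP or ACV neurons, Gip none either, and Gcg had reads in 3.06% of ACV neurons. The growth factor Igf1 was higher in ACV, at 64.7 ± 78.4 CPM in ACV (SD, n = 98) and 8.45 ± 21.7 CPM in ACP (SD, n = 53), and in neurons with no microglial read at 83.4 CPM in 37 ACV and 3.20 CPM in 24 ACP neurons. The prohormone convertase Pcsk1 was higher in ACP, at 83.97 CPM against 34.6 CPM. The other 5 did not differ by 2-fold. Among them Pomc, the melanocortin precursor, had means of 5.63 CPM in ACP and 5.66 CPM in ACV, and Cck, the ligand of Cckbr, 15.98 and 31.2 CPM. The list's median log2 fold (ACP over ACV) was -0.01, beside 0.00 for all genes.

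The counts of signalling genes downstream stand beside the 9.87% of all genes at least 2-fold higher in ACP and the 8.63% higher in ACV. In the leptin list all 11 genes passed the filter, with Stat5a at least 2-fold higher in ACP (6.34 against 2.95 CPM) and 10 in neither; the kinase Jak2 was at 23.7 and 25.99 CPM and the transcription factor Stat3 at 82.3 and 53.4 CPM. The list's median log2 fold was -0.11. In the insulin list Irs4, a docking protein, was higher in ACP (9.38 against 4.25 CPM), Pik3cb in ACV (6.29 against 2.67 CPM) and 16 of 18 in neither, with a median of 0.26.

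Of 23 coupling genes that passed, 20 were in neither, 1 was higher in ACP and 2 in ACV, beside the same 9.87% and 8.63% of all genes, with a median of 0.02. The phospholipase Plcb4 had the largest fold, at 386 ± 291 CPM in ACV (SD, n = 98) against 43.01 ± 43.6 CPM in ACP (SD, n = 53). The adenylyl cyclase Adcy8 was at 66.8 CPM in ACV and 10.7 CPM in ACP, and the G protein Gna14 at 4.65 and 10.6 CPM. Mrap2, an accessory protein known to modify Mc4r and Ghsr, was found in 77.4% of ACP, 68.4% of ACV and 55.8% of laryngeal neurons, with means of 64.1, 63.02 and 28.4 CPM.

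The genes whose levels were most like each receptor's were ranked by Pearson's r of ln(counts per 10000 + 1) over all neurons. For Ghsr these were Hoxc4 (r = 0.47), Cd9 (0.45), Vstm2a (0.44), Akap7 (0.44) and the somatostatin receptor Sstr2 (0.43), the last found in 61.2% of ACV and 16.98% of ACP neurons. For Mc4r, Olfr1090 came first (0.45) but had reads in only 2 neurons, followed by Pappa2 (0.37), in 94.3% of ACP and 5.10% of ACV neurons, Mgat4c (0.36), Syt10 (0.36) and Rasgrf2 (0.36). For Lepr the list was Mir181b-2 (0.50), Pax5 (0.49), Egfem1 (0.48), Mir7663 (0.46) and Abhd1 (0.45), and apart from Egfem1, in 79.6% of ACV and 39.6% of ACP neurons, these had reads in 2 to 18 neurons. Part of each r comes from the difference in level between the 3 types.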

How the data were processed

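The authors sequenced Smart-seq2 libraries of single neurons with paired-end reads, trimmed them with Skewer, aligned them to mm10 with STAR 2.6.1d (submitters' processing notes) and deposited raw counts per gene and neuron. The counting program, annotation and use of strand are not given in the sources used here. The neuron types are the authors' deposited annotation. A second deposited table, named CPM, was not used because its columns do not sum to 1000000.

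Counts were divided by each neuron's total outside Rn45s and multiplied by 1000000. A fold is a ratio of means over neurons; a type at 0 was set to 3 counts over its summed total. Genes detected in at least 10% of either type were compared by 2 rules of size, 2-fold in means and 30 percentage points in detection. The code of the 2-fold rule was run on simulated Poisson counts with known changes larger than 2-fold in well-counted genes. That run checks the code only, since the counts here spread more widely between neurons. Shares have exact (Clopper-Pearson) and sums exact Poisson 95% intervals; both cover counting error only, since reads carry no molecular identifiers. No 2 neurons had identical counts. The members and gene lists were chosen with earlier results of these data known. Beside the members, the text names up to 4 genes of each list past the 2-fold rule, by fold in ACP against ACV, and the 5 genes most like Ghsr, Lepr and Mc4r; other list genes named were chosen after their values were seen. Alternatives were other detection limits, thinning, edgeR 4.0.16 (TMM) and DESeq2 1.42.0 size factors, other filters and subsets of neurons. Python 3.11.15 was used with pandas 2.3.3 and scipy 1.17.1. Promoter windows are from RefSeq.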

Additional observations from a re-analysis of the deposited data

How the results depend on the processing

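Folds of the members past the 2-fold rule kept their direction at every setting run except for Lepr, below, and Cckbr between ACV and laryngeal neurons without microglial reads (0.10). Insr, under the rule, took either sign against ACV. Lepr between ACP and laryngeal neurons went to a log2 fold of 2.26 with at most 900 counts of Apoe, and to -0.99 in neurons with no endothelial read, a setting chosen after seeing the data. Log2 folds (ACP over ACV) ran from -9.07 to -7.72 for Ghsr, -3.93 to -3.21 for Lepr, 1.93 to 3.47 for Mc4r and 2.49 to 4.84 for Cckbr over 11 settings each. With at most 900 counts of Apoe, which left 26 ACP, 44 ACV and 38 laryngeal neurons, values that moved over 1.5-fold were, ACP over ACV, Ghsr -7.85, Mc4r 3.30 and Glp1r -4.85. ACP over laryngeal they were Ghsr -6.19 and Cckbr 0.70, and ACV over laryngeal Lepr 5.91, Mc4r -1.22, Glp1r 4.72 and Cckbr -2.58. With at most 50% of counts on Rn45s (15 laryngeal neurons left), Mc4r was 3.31 (ACP over ACV), Cckbr 2.46 (ACP over laryngeal) and, ACV over laryngeal, Mc4r -1.88, Glp1r 4.48 and Cckbr -0.26. With summed counts, Glp1r was -6.83 and Cckbr 2.49 (ACP over ACV), Cckbr 1.09 (ACP over laryngeal) and Mc4r -1.42 (ACV over laryngeal). Without the highest neuron of each type, Cckbr was 2.82 (ACP over laryngeal), and Lepr 2.40 and Cckbr -0.52 (ACV over laryngeal). Scaled by totals with Rn45s, Glp1r was 6.17 and Cckbr -0.93 (ACV over laryngeal). With at most 1800 counts of Apoe, chosen after seeing the data, Insr was 0.42 (ACP over ACV) and Cckbr -0.97 (ACV over laryngeal), and without endothelial reads Lepr was 2.81 (ACV over laryngeal). Without microglial reads, also chosen after seeing the data (24 ACP, 37 ACV and 23 laryngeal neurons left), they were, ACP over ACV, Ghsr -7.72, Mc4r 3.47, Glp1r -4.83 and Cckbr 4.84, ACP over laryngeal, Ghsr -4.79, Cckbr 4.94 and Insr -0.99, and ACV over laryngeal, Ghsr 2.93, Lepr 2.54, Mc4r -2.16 and Glp1r 4.11. Every Ghsr fold against ACP uses 3 counts over the summed ACP total, a floor that rises when fewer ACP neurons are left. Without microglial reads the ACV mean of Ghsr was 23.3 CPM in 37 neurons, beside 23.1 CPM in all 98. Causes of the moves apart from this floor were not tested.

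Counts of genes past the rule, higher in ACP and in ACV, were 2837 and 2860 with no filter, 789 and 537 with detection in at least 25%, 2469 and 2134 at 1.5-fold and 393 and 371 at 4-fold, from the fewer or more genes each setting admits. For ACP and laryngeal neurons they were 2605 and 4515, 817 and 1016, 2589 and 2945, and 431 and 493. For ACV and laryngeal neurons they were 2715 and 4794 with no filter, 764 higher in ACV at 25%, 2685 and 3267 at 1.5-fold and 460 and 542 at 4-fold. Totals with Rn45s shifted the split to 3398 higher in ACP and 695 in laryngeal neurons, and 3281 in ACV and 955 in laryngeal neurons. Of the ACP genes against laryngeal neurons, 2217 passed with at most 50% on Rn45s. The 30-point rule was met by 1.40% of genes toward ACP and 0.740% toward ACV with at most 900 counts of Apoe. ACV neurons with both Ghsr and Lepr made 38.8% at 3 reads, 21.4% at 10 reads, 34.7% at 300000 counts and 26.5% at 100000, by construction of these settings, and 40.5% without microglial reads. The ratio to the product was 1.10 to 1.29 at the read minimums, depths and subsets run. In neurons with fewer and more genes it was 1.36 and 1.03, the latter with little room to differ from 1. Of 280 shares, the joint one included, 42 left their main interval. Laryngeal neurons had the lowest depth outside Rn45s, so rare receptors there are the least certain. No paired analysis was possible because the labels put no replicate numbers on the neuron types.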

Other observations

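Among 29 other hormone receptors, 16 passed the filter on detection between ACP and ACV. Of these 3 were at least 2-fold higher in ACV, as were 8.63% of all genes, and 2 in ACP, as were 9.87%. Rxfp2, the receptor of insulin-like peptide 3, was found in 54.1% of ACV, 5.66% of ACP and 3.85% of laryngeal neurons, at 31.3 ± 52.98 CPM (SD, n = 98) in ACV and 0.856 ± 4.30 CPM (SD, n = 53) in ACP. Both Rxfp genes passed the filter through ACV alone. The relaxin receptor Rxfp1 was found in 17.3% of ACV and 1.89% of ACP neurons, and the prolactin receptor Prlr had means of 19.9 CPM in ACV and 6.00 CPM in ACP. Those higher in ACP were Mchr1, the receptor of melanin-concentrating hormone, at 13.3 against 5.09 CPM, and the growth hormone receptor Ghr, at 14.4 against 6.30 CPM. The other 11 did not differ by 2-fold, and the list's median log2 fold (ACP over ACV) was 0.11. Adipor1, an adiponectin receptor, was found in 98.1%, 95.9% and 100% of ACP, ACV and laryngeal neurons. No test between types was possible, as for the members.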
